A study of Mus musculus with 5 samples.

Results

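The RNAs described here are guide RNAs of the Cajal body and the RNA component of telomerase, measured in precipitates of the survival of motor neuron protein (SMN). They were taken as every probe set whose only gene symbol starts with Scarna or is Terc, which gave 4 of the 28187 probe sets tested: Scarna17, Scarna13, Scarna8 and Terc. Of the 9 Scarna genes in the RefSeq gene table used here, 3 had a probe set of their own. Each of the 4 genes had 1 probe set, out of 19937 genes whose probe sets carry a single symbol. The set was chosen by name, but it was proposed with the log2 values of FLAG-SMN IP against control IP known, so the levels of these 4 RNAs and their differences between precipitates are given as a description, without a test.

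The cells were NSC-34, a mouse hybrid line of neuroblastoma and spinal cord motor neurons that is used as a motor neuron-like model. The FLAG-SMN IP group comprised 3 arrays, from cells that contain a 3XFLAG-flSMN construct, and the control IP group 2 arrays, from NSC-34 cells with no FLAG construct. All cells, of either kind, were differentiated in medium with 1% serum (3 days in one protocol of the labels, 48 hours in another), kept for 3 days in doxycycline at 3 µg/ml, and irradiated once with ultraviolet light at 400 mJ/cm2. RNA recovered with anti-FLAG M2 beads, eluted with FLAG peptide and freed of protein with proteinase K was hybridised to Affymetrix arrays. The control IP therefore measures RNA retained without a tagged protein. It also comes from other cells than the FLAG-SMN IP, and no array of RNA before precipitation was included. Recovery with SMN and a different level of an RNA in the cells with the construct therefore cannot be told apart. No label says from which species the construct's coding sequence comes, whether the line is 1 clone, or whether replicates were separate cultures, so spread between arrays may be technical.

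Small Cajal body RNAs guide the chemical modification of spliceosomal small nuclear RNAs (snRNAs), the RNAs onto which the SMN complex loads Sm proteins. Box C/D RNAs direct methylation of the ribose and associate with fibrillarin, whereas box H/ACA RNAs direct the conversion of uridine to pseudouridine and associate with dyskerin. Telomerase RNA carries the template that the reverse transcriptase TERT copies onto chromosome ends, and in vertebrates its 3′ end folds into an H/ACA domain bound by dyskerin and its partner proteins. In human cells the protein WRAP53 (TCAB1) holds H/ACA scaRNAs and telomerase RNA in the Cajal body, a nuclear structure built on coilin in which SMN also collects.

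Scarna17 is of the box C/D kind, and Scarna13, Scarna8 and Terc are of the H/ACA kind. In the RefSeq table (assembly GRCm38.p6) their entries are 62 bases long for Scarna17, 275 for Scarna13, 118 for Scarna8 and 397 for Terc. Scarna13 lies within the non-coding host gene Snhg10, Scarna8 within Haus6, a gene of the mitotic spindle, and Scarna17 within the long non-coding RNA gene Gm41774. Terc lies within no other gene of the table. A stretch of Scarna13 is shown because it carries the ACA box that names the class. RefSeq places the hairpin of the microRNA Mir3069 inside Scarna13 (GRCm38.p6, chr12:105031077-105031141, minus strand), and its 65 bases read as follows, with the last ACA in capitals.

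Scarna13, stretch shared with the Mir3069 hairpin: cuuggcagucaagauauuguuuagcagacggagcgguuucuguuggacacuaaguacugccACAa

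On that strand, which is also that of Snhg10, the capitals end 3 bases before the end of the Scarna13 entry, the position that an ACA box has in this class. The letters ACA were searched on the RNA strand only. They occur in 67.3% of the 1005 mouse microRNA hairpins of the same table, and 6.57% of those hairpins hold them with 1 base after them at the end, so the match by itself is a description. Mir3069 and Snhg10 had no probe set of their own, and the Scarna13 probe set was not resolved into mature guide RNA, hairpin fragments and unspliced host RNA.

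The identity of the Scarna17 probe set carries a limit. RefSeq places Scarna17 on chromosome 18, beside another guide RNA gene, Gm23119. The probe set IDs follow chromosome order, and all 20 of the nearest named IDs around that of Scarna17 belong to genes on chromosome 19. Between the genes named on either side there, Ms4a4d and Oosp3, RefSeq lists another pair of guide RNA genes, Gm26183 and Gm25443. For Scarna13 and Terc, all 20 neighbouring IDs lay on the RNA's own chromosome, as did 19 of 20 for Scarna8. Which locus the Scarna17 probe set reads was not tested, and it is called Scarna17 here as the platform annotation does. The box class of its signal rests on that name, so comparisons below between Scarna17 and the H/ACA RNAs carry the same limit.

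The array of FLAG-SMN IP replicate 1 differed most from the others of its group. Its correlation across probe sets was 0.964 with replicate 2 and 0.968 with replicate 3, against 0.989 between replicates 2 and 3 and 0.98 between the control IP arrays. Values are deposited RMA values on the log2 scale, which forces arrays toward 1 distribution, so a general difference in recovered RNA is not visible. The median of presumed control probe sets, used below as a guide to background, was 4.30 to 4.45 in the FLAG-SMN IP arrays and 4.49 to 4.55 in the control IP arrays. Some of these probe sets were bright, with a 95th percentile of 9.46 to 9.59 over the 5 arrays, so the guide is rough. The median of all probe sets tested was 5.25 to 5.39 per array, so most probe sets lay above the presumed control median. The presumed control 95th percentile was passed by 2 of 15 motor neuron markers on all FLAG-SMN IP arrays, and by 2 on all control IP arrays. Of the 15, 10 lay above the presumed control median on all 5 arrays, while Slc5a7, Mnx1 and Stmn2 lay below it on all of them. The cholinergic enzyme gene Chat was near it, at 4.53, 4.69 and 4.40 in FLAG-SMN IP and 4.61 and 4.28 in control IP. The 7 measured noradrenergic markers averaged 7.25 to 7.72 per FLAG-SMN IP array and 8.42 to 8.68 per control IP array. Their log2 differences, FLAG-SMN IP minus control IP, did not share a size or sign. They were -2.23 for Dbh, -2.06 for Chgb, -1.94 for Th, -1.88 for Chga, -0.19 for Phox2a, -0.02 for Hand2 and 0.50 for Gata3. The markers of glia (6 measured), fibroblasts and endothelium (8) and blood cells (5) averaged at most 5.39 on any FLAG-SMN IP array. On any control IP array they averaged at most 5.28. These averages hide single markers. The presumed control median was passed on all 5 arrays by 1 glial, 5 fibroblast and endothelial and 2 blood markers, and by the 7 noradrenergic ones. Aqp4, Dcn and Aif1 lay below it on all arrays. Among the 8 fibroblast and endothelial markers, log2 differences ran from -0.78 for Kdr to 1.00 for Pecam1. The part of these markers' difference in the results below was not tested.

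Scarna17 was high in every FLAG-SMN precipitate. Its log2 level was 12.35, 12.24 and 12.58 in FLAG-SMN IP replicates 1, 2 and 3, against 9.86 and 9.38 in control IP replicates 1 and 2. All 3 FLAG-SMN arrays lay above both control arrays, and the groups did not overlap. Over all probe sets, 12.1% had non-overlapping groups with FLAG-SMN IP the higher. So did 19 of 31 box C/D small nucleolar RNAs (snoRNAs) and 2 of 20 box H/ACA snoRNAs. The means were 12.39 ± 0.17 (SD, n = 3) in FLAG-SMN IP and 9.62 ± 0.34 (SD, n = 2) in control IP, a difference of 2.77 or 6.82-fold. With any 1 array left out the difference lay between 2.53 and 3.01. Replicate 1 was 0.065 below the mean of replicates 2 and 3 here, less than the 0.34 between replicates 2 and 3.

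Scarna13, a guide with 2 linked H/ACA domains in its human counterpart, was high in 2 of 3 FLAG-SMN precipitates. Its log2 level was 8.56, 11.54 and 11.80 in FLAG-SMN IP replicates 1, 2 and 3, against 8.79 and 8.71 in control IP replicates 1 and 2. Replicates 2 and 3 were well above both control arrays, whereas replicate 1 lay below both, so the groups overlapped. The means were 10.63 ± 1.80 (SD, n = 3) in FLAG-SMN IP and 8.75 ± 0.052 (SD, n = 2) in control IP, a difference of 1.88. Leaving out FLAG-SMN IP replicate 1 put it at 2.92 (7.57-fold), which is close to the 2.79 of Scarna17 over the same 4 arrays. The control arrays differed by 0.073, the smallest spread between controls among the 4 RNAs.

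Scarna8, another H/ACA guide of snRNA modification, followed the pattern of Scarna13 over the arrays. Its log2 level was 5.23, 6.73 and 7.28 in FLAG-SMN IP replicates 1, 2 and 3, against 4.88 and 5.41 in control IP replicates 1 and 2. Replicates 2 and 3 again lay above both control arrays, and replicate 1 lay between the control arrays. The means were 6.41 ± 1.06 (SD, n = 3) in FLAG-SMN IP and 5.14 ± 0.38 (SD, n = 2) in control IP, a difference of 1.27, which was 1.86 without replicate 1. The control values stood less than 1 log2 unit above the presumed control medians of their arrays, so no fold is given.

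Terc, the telomerase RNA, was higher in 2 of 3 FLAG-SMN precipitates than in both control precipitates, by less than each guide RNA. Its log2 level was 6.03, 12.76 and 12.66 in FLAG-SMN IP replicates 1, 2 and 3, against 12.04 and 11.92 in control IP replicates 1 and 2. Replicates 2 and 3 lay above both control arrays, while replicate 1 lay far below all the others. The means were 10.48 ± 3.86 (SD, n = 3) in FLAG-SMN IP and 11.98 ± 0.087 (SD, n = 2) in control IP, a difference of -1.50 that is smaller than the SD of the FLAG-SMN group. Without FLAG-SMN IP replicate 1 its sign turned, to 0.73 (1.66-fold higher in FLAG-SMN IP). With replicate 2 left out it was -2.63, and with replicate 3 left out -2.58. The direction for telomerase RNA therefore rested on 1 array.

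**Figure D1:**
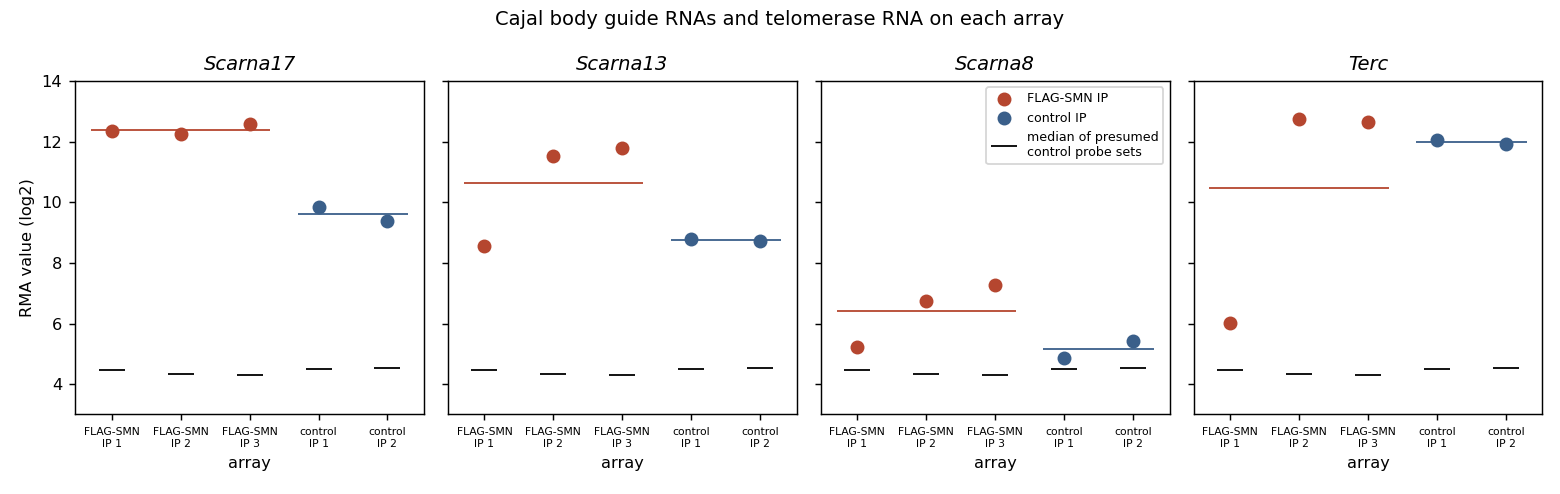
RMA value (log2, vertical axis) of each RNA on the 3 FLAG-SMN IP arrays (red) and the 2 control IP arrays (blue); horizontal lines are group means and black dashes the median of presumed control probe sets on that array. Scarna17 is above 12 on all FLAG-SMN IP arrays, whereas Terc is at 6.03 on replicate 1 and between 11.92 and 12.76 on the other arrays.

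Leaving out arrays in turn separated Scarna17 from the rest. Its difference moved least in proportion, while that of Scarna13 lay between 1.30 and 2.92, that of Scarna8 between 0.84 and 1.86 and that of Terc between -2.63 and 0.73. The 3 guide RNAs had positive differences in every leave-one-out setting. Over the 4 arrays without replicate 1 all 4 RNAs had non-overlapping groups with FLAG-SMN IP the higher, a pattern found at 20.3% of all probe sets. It was also found at 16 of 20 box H/ACA snoRNAs and 27 of 31 box C/D snoRNAs, so it was not particular to these 4 RNAs. Among the 28187 probe sets ordered from the highest difference over those 4 arrays, Scarna13 ranked 9, Scarna17 11, Scarna8 89 and Terc 996. Over all 5 arrays the ranks were 19 for Scarna17, 73 for Scarna13, 214 for Scarna8 and 28070 for Terc.

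**Figure D2:**
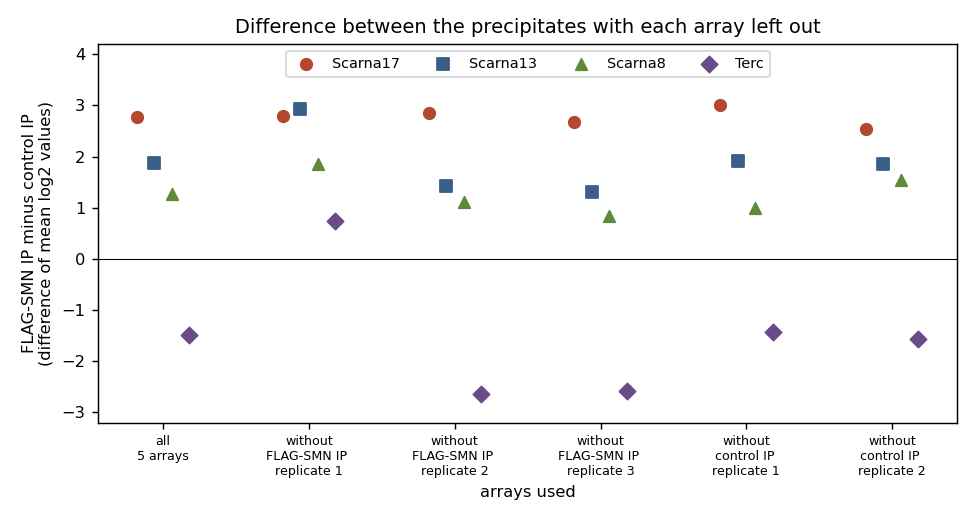
Difference of mean log2 values, FLAG-SMN IP minus control IP (vertical axis), for each RNA with all 5 arrays and with each array left out in turn (horizontal axis). Scarna17 stays between 2.53 and 3.01, and Terc is above 0 only without FLAG-SMN IP replicate 1.

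The gap between FLAG-SMN IP replicate 1 and its group was measured as replicate 1 minus the mean of replicates 2 and 3. For Terc it was -6.68, the largest gap, in either direction, of all 28187 probe sets. No fold is given, since 74.0% of presumed control probe sets lay below the Terc value of that array and the others above it. Scarna13 had a gap of -3.11, the 34th lowest, and Scarna8 one of -1.77, the 212th lowest. Scarna17, at -0.065, ranked 11495. Over all probe sets 3.41% had replicate 1 more than 1 log2 unit below replicates 2 and 3, and the 3 H/ACA RNAs were among them. Replicates 2 and 3 differed from each other by 0.10 for Terc, 0.26 for Scarna13, 0.34 for Scarna17 and 0.54 for Scarna8.

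The box H/ACA snoRNAs, which share the protein core of these RNAs but guide pseudouridine formation in ribosomal RNA, had the same kind of gap. Of 20 genes named Snora, 20 had replicate 1 below the mean of replicates 2 and 3, where 47.4% of all probe sets did, and 16 were more than 1 log2 unit below. Their gaps ran from -3.74 to -0.37 with a median of -2.03, so that of Terc lay outside the range and those of Scarna13 and Scarna8 inside it. Of 31 box C/D snoRNAs named Snord, 19 were below and 9 more than 1 unit below, with a median gap of -0.17. Among the 6 genes annotated as small nuclear RNAs, 4 were more than 1 unit below. Box C/D snoRNAs also held the next lowest gap after Terc, that of Snord118 (-6.58), which is the U8 RNA of ribosomal RNA processing. What differed in this precipitate was not recorded in the labels, and the part of RNA recovery, labelling or hybridisation in the gap was not tested.

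**Figure D3:**
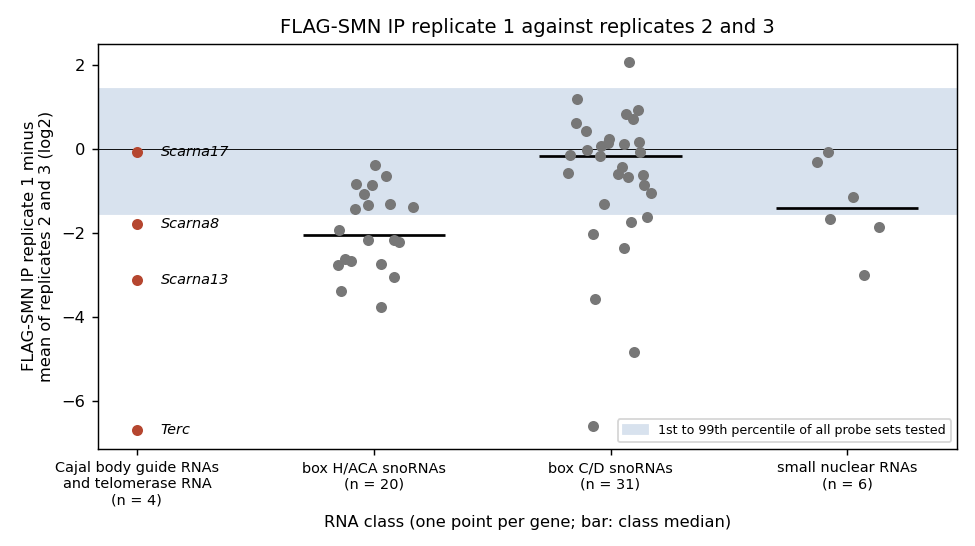
FLAG-SMN IP replicate 1 minus the mean of replicates 2 and 3 (log2, vertical axis), 1 point per gene, for the 4 RNAs described here and for 3 classes of small nuclear or nucleolar RNA; black bars are class medians and the shaded band runs from the 1st to the 99th percentile of all probe sets tested. Terc is at -6.68 and Scarna17 at -0.065, and the H/ACA snoRNAs have a median of -2.03.

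Median differences between precipitates also shifted with that array. The H/ACA snoRNAs had a median difference of 0.45 over all 5 arrays and 0.97 without replicate 1. The box C/D snoRNAs had 0.91 over all arrays and 1.08 without it, and the 3 annotated guide RNAs 1.88 and 2.79. For the 6 small nuclear RNAs the medians were -0.02 over all arrays and 0.74 without it, with Rnu5g, Rnu6 and Rnu7 near or below background. The median over all probe sets was 0.018 with all arrays and 0.009 without replicate 1.

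The 4 RNAs did not share 1 profile over the arrays. Likeness was measured as the root mean square difference between log2 values, each RNA centred on its own mean over the 5 arrays. Scarna13 and Scarna8 were the closest pair, at 0.61, and Scarna17 and Terc the most distant, at 3.20. Scarna17 was 1.02 from Scarna8 and 1.20 from Scarna13, and Terc was 2.11 from Scarna13 and 2.27 from Scarna8.

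The genes most like Scarna17 were Gas5 (0.24), a non-coding host of box C/D snoRNAs, the box C/D snoRNA Snord15a (0.29), the zinc finger gene Zc3h3 (0.35) and the box C/D snoRNA Snord42a (0.48). Gas5 was at 10.46, 10.17 and 10.11 in FLAG-SMN IP and 7.92 and 7.58 in control IP. All 4 had every FLAG-SMN IP array above both control IP arrays, which the choice by likeness favours. Scarna13 was closest to the chemokine gene Ccl2 (0.23), Tmem38b (0.27), which encodes a cation channel of the endoplasmic reticulum, the cation channel gene Trpc1 (0.28) and the Y RNA gene Rny1 (0.47). Rny1 was at 8.51, 10.90 and 10.81 in FLAG-SMN IP and 8.63 and 9.08 in control IP. Ccl2, Tmem38b and Trpc1 likewise had replicate 1 more than 2 log2 units below replicates 2 and 3, as Rny1 and Scarna13 did. The choice by likeness to Scarna13 favours such a gap, so its share of 0.557% among all probe sets is given as background only.

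Scarna8 was closest to the ribosomal protein gene Rpl36 (0.20), Acaa2 (0.21), a gene of mitochondrial fatty acid oxidation, the myosin light chain gene Myl9 (0.22) and the box C/D snoRNA Snord87 (0.24). Terc had 1 close gene, Snord118 (0.28). Snord118 was at 3.76, 10.64 and 10.03 in FLAG-SMN IP and 10.29 and 9.69 in control IP. Its low value lay under the presumed control median of that array. The next in order for Terc, Uqcc2, H4c4 and Snord82, were at 1.17 to 1.19, though each also had its lowest value in FLAG-SMN IP replicate 1. These distances rest on 5 arrays and carry no test.

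**Figure D4:**
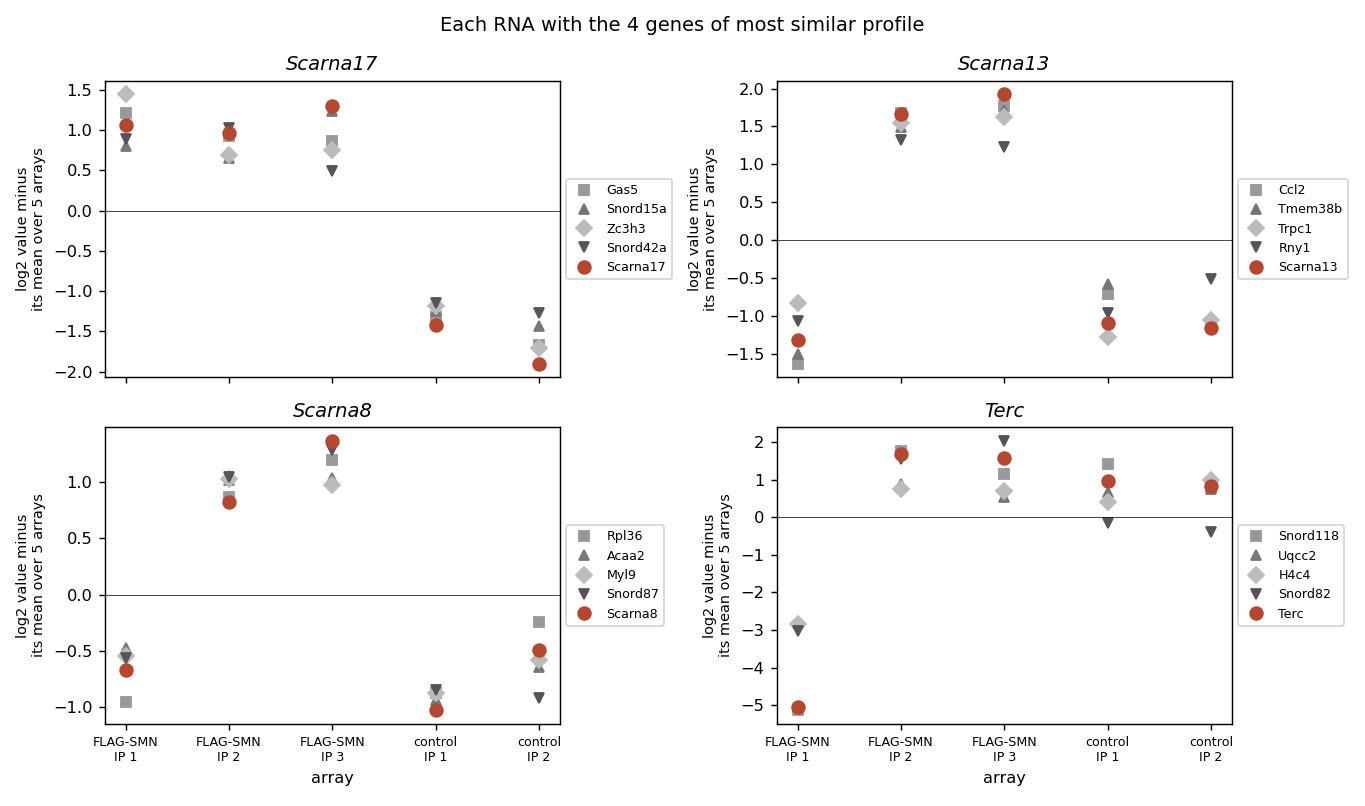
Log2 value minus its mean over the 5 arrays (vertical axis) for each RNA (red) and the 4 genes closest to it (grey), on the 3 FLAG-SMN IP arrays and the 2 control IP arrays. Only the panel of Scarna17 has all FLAG-SMN IP values above 0 and all control IP values below it; Terc and Snord118 share a single low point at FLAG-SMN IP replicate 1.

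Host and neighbouring genes were measured where they had a probe set. Haus6, which contains Scarna8, was at 6.19, 6.19 and 6.29 in FLAG-SMN IP and 5.11 and 6.81 in control IP, with a log2 difference of 0.26 (SE 0.45; limma adjusted p = 0.954). It did not share the low value of Scarna8 in replicate 1, and its control arrays differed more from each other than the groups did. Rraga, next to Haus6 and a regulator of nutrient signalling, gave 0.062 (limma adjusted p = 0.993). On the other side the nearest measured gene was Plin2, of the lipid droplet coat, at 0.15 (limma adjusted p = 0.931). Beside Scarna13, the iron-sulfur cluster gene Glrx5 gave -0.016 (limma adjusted p = 0.999) and Syne3, a nuclear envelope gene, 0.41 (limma adjusted p = 0.617). Beside Scarna17 on chromosome 18, Acaa2 was at 7.63, 9.13 and 9.14 in FLAG-SMN IP and 7.16 and 7.46 in control IP, a difference of 1.32 (SE 0.47; limma adjusted p = 0.384). Acaa2 was low in replicate 1 relative to replicates 2 and 3, as the Scarna17 probe set was not. Whether that probe set reads the chromosome 18 locus was not tested. On the other side of that locus the motor protein gene Myo5b gave 0.16 (limma adjusted p = 0.91). Its levels ran from 4.45 to 4.83 on the 5 arrays, near the presumed control medians. The nearest measured protein-coding genes around Terc, Fcgr1 and BC107364, were near or below the presumed control medians on all arrays. A further list held genes that lie near telomerase RNA in human, and its 4 members with a probe set (Lrrc34, Actrt3, Lrriq4 and Mynn) had differences from -0.29 to 0.06, with 0 past the adjusted threshold in limma and 0 at an unadjusted p under 0.05. Lrrc34 and Lrriq4 lay below the presumed control median on every array, so their mRNAs were not measured above background.

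The mRNAs of related proteins were read from a fit over all probe sets. These proteins bind, assemble or process the RNAs, or belong to Cajal bodies or telomere ends. Across 6 lists, 50 of 52 genes had a probe set. In limma, 0 passed an adjusted p of 0.05, where 9 of all probe sets (0.0319%) did. Unadjusted p-values lay under 0.05 for 4 genes with higher means in FLAG-SMN IP (8.0%, against 4.14% of all probe sets) and for 4 with lower means (8.0%, against 6.31%). Groups did not overlap for 4 higher genes (8.0%, against 12.1%) and 8 lower ones (16.0%, against 13.2%). The median log2 difference of the 50 genes was 0.005, against 0.018 over all probe sets.

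Of 6 H/ACA core and assembly genes, 3 had an unadjusted p under 0.05, 2 of them with a positive and 1 with a negative difference, and the adjusted limma test called 0. These were 33.3% and 16.7% of a short list, against 4.14% and 6.31% of all probe sets. Dkc1, which encodes dyskerin, the pseudouridine synthase, was at 7.95, 7.68 and 8.08 in FLAG-SMN IP and 8.53 and 9.12 in control IP. Every FLAG-SMN IP array was below both control IP arrays, with a difference of -0.93 (SE 0.24; limma adjusted p = 0.248). Nhp2, a core protein, was at 9.45, 9.34 and 9.36 in FLAG-SMN IP and 8.96 and 8.87 in control IP, a difference of 0.46 (SE 0.17; limma adjusted p = 0.407). Shq1, a chaperone of dyskerin, gave 0.54 (SE 0.21; limma adjusted p = 0.436). The core genes Nop10 (-0.25) and Gar1 (-0.22) and the assembly factor gene Naf1 (0.09) had overlapping groups. Replicate 1 minus the mean of replicates 2 and 3 ran from -0.61 for Nop10 to 0.63 for Gar1 among these 6 mRNAs, so 0 of them were more than 1 log2 unit below.

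The 4 C/D core genes all had negative differences, with 0 past the threshold in limma and 0 at an unadjusted p under 0.05. Fbl, which encodes the methyltransferase fibrillarin, gave -0.46 (SE 0.22; limma adjusted p = 0.563) and its other probe set -0.60. Nop56 gave -0.58 (limma adjusted p = 0.589), Snu13 -0.43 (limma adjusted p = 0.607) and Nop58 -0.16 (limma adjusted p = 0.979). The 4 probe sets of Snu13 did not share a sign, running from -0.43 to 0.21. Of 7 measured assembly factor genes for these particles, 0 reached an unadjusted p under 0.05, and their differences lay between -0.27 for Pih1d1 and 0.23 for Rpap3.

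Of the 16 Cajal body genes, 2 with positive and 1 with a negative difference had an unadjusted p under 0.05, and the adjusted limma test called 0. These were 12.5% and 6.25% of the list, against 4.14% and 6.31% of all probe sets. Wrap53 was at 7.94, 7.23 and 7.76 in FLAG-SMN IP and 6.71 and 6.92 in control IP, with all FLAG-SMN IP arrays the higher, and gave 0.83 (SE 0.25; 1.77-fold; limma adjusted p = 0.311). The other was Smn1, at 9.89, 9.504 and 9.46 in FLAG-SMN IP and 8.10 and 7.64 in control IP, a difference of 1.74 (SE 0.23; limma adjusted p = 0.0877). It passed the threshold in limma with array weights (1.65, adjusted p = 0.0446) and when FLAG-SMN IP replicate 1 was left out (1.61, adjusted p = 0.0259), and whether its probe set reads the construct is not known. Coil, which encodes coilin, was at 5.77, 5.34 and 5.46 in FLAG-SMN IP and 5.36 and 5.51 in control IP, a difference of 0.09 (SE 0.20; limma adjusted p = 0.973). Larp7, whose product binds the 7SK RNA, was the lower gene at -0.48 (limma unadjusted p = 0.0483, adjusted p = 0.472), and its other probe set gave -0.30. Sart3, a recycling factor of snRNPs, gave -0.0011 and Nolc1, a chaperone of these RNPs, -0.18, with overlapping groups.

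Of 17 measured telomerase and telomerase RNA processing genes, 3 with positive and 3 with negative differences had an unadjusted p under 0.05 (0 when adjusted, in limma). Each was 17.6% of the list, against 4.14% and 6.31% of all probe sets. The genes included Wrap53, Nhp2, Shq1, Dkc1 and Larp7, already counted in the lists above. The sixth was Tent4b, whose product adds short adenosine tails to telomerase RNA, at 7.64, 7.97 and 7.87 in FLAG-SMN IP and 8.46 and 8.57 in control IP. Its difference was -0.68 (SE 0.19; limma adjusted p = 0.264). Parn, which encodes the ribonuclease that removes those tails, gave 0.25 (limma adjusted p = 0.883). Tert was at 4.37, 3.68 and 3.998 in FLAG-SMN IP and 3.96 and 3.74 in control IP, under the presumed control median on every array, so its mRNA was not measured above background. Of 10 telomere end genes, 0 passed the adjusted threshold in limma. At an unadjusted p under 0.05 there was 1, a lower gene (10.0%, against 6.31% of all probe sets). This was Ten1, of the complex that coats single-stranded telomere ends, at 7.10, 7.45 and 7.46 in FLAG-SMN IP and 8.50 and 8.15 in control IP (difference -0.99, SE 0.21; limma adjusted p = 0.194). Its partner genes Stn1 and Ctc1 gave 0.60 and -0.09, and the shelterin genes Terf1 and Terf2 0.55 and -0.16.

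**Figure D5:**
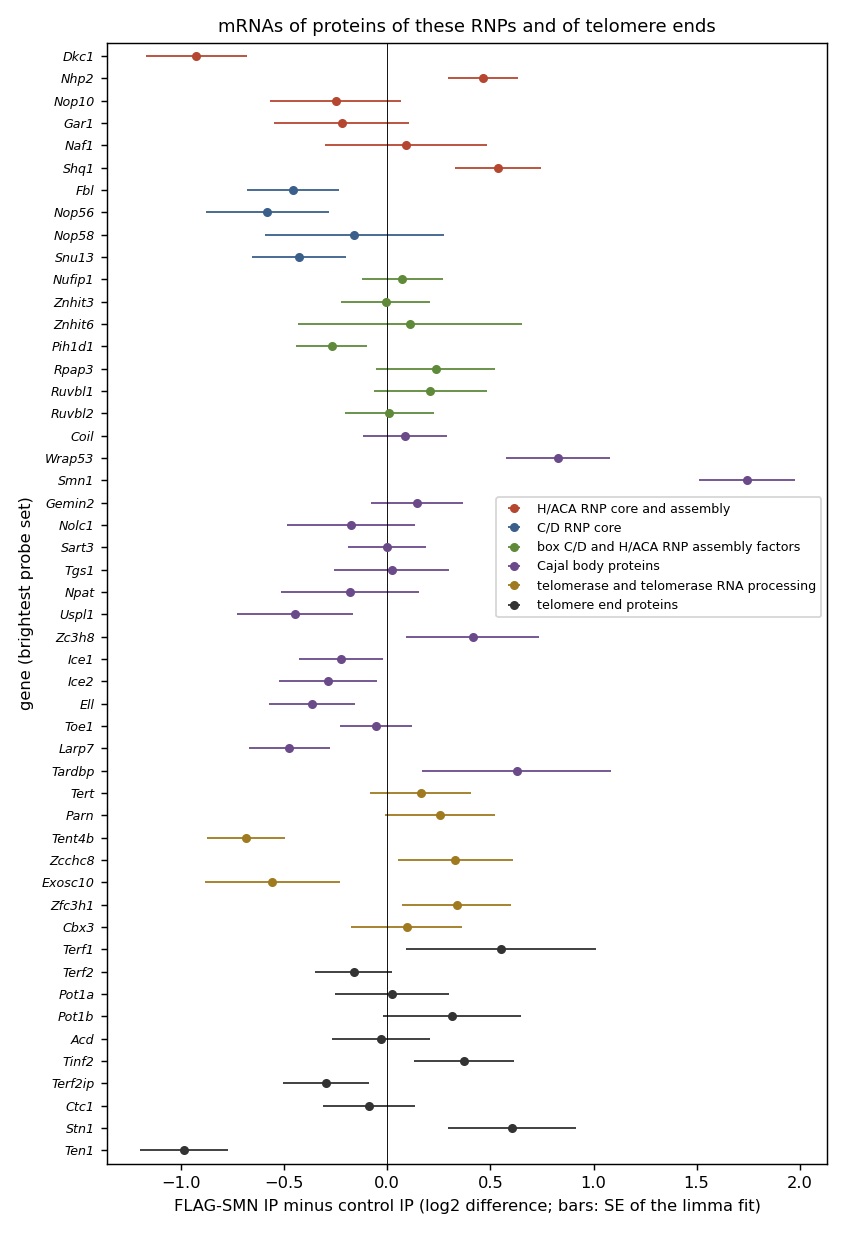
Log2 difference, FLAG-SMN IP minus control IP (horizontal axis), of the brightest probe set of 50 genes whose proteins bind, assemble or process these RNAs or sit at telomere ends; bars are standard errors of the limma fit. Smn1 is at 1.74, and the others lie between -0.99 for Ten1 and 0.83 for Wrap53.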

How the data were processed

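RNA from anti-FLAG precipitates was measured on 5 single-colour arrays, grouped by sample title into 3 FLAG-SMN IP and 2 control IP. The authors deposited log2 values (a scale read from their range); per the submitters' processing notes they were made with RMA, in a version not given in the sources used here. Of 34760 probe sets, 6573 had IDs below the lowest annotated one; these presumed controls were not fitted. The remaining 28187 were fitted with limma 3.58.1 (R 4.3.3), with group as the only term, moderated 2-sided tests and Benjamini-Hochberg adjustment over all of them at 0.05, and the fit was tested on simulated data. For the lists, the brightest probe set of each gene was used. Means, gaps and likeness were computed in Python 3.11.15 with pandas 2.3.3. Named genes were the 4 RNAs, members of the lists, the 4 genes most like each RNA among probe sets with 1 symbol and a mean above the median, and genes next to or around each RNA in RefSeq; where the next gene had no probe set, the nearest measured one (Acaa2, Syne3, Plin2, Fcgr1, BC107364) was added with its values in view, as were the snoRNA and snRNA classes. The RNAs and lists were chosen with earlier results of these data known. Scarna8 was found by the rule once the table was opened. The number of arrays limits precision. Alternatives were other scalings, filters, variance moderation, array weights, a replicate block, mean of probe sets, and each array left out.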

Additional observations from a re-analysis of the deposited data

How the results depend on the processing

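The differences of Scarna17, Scarna13 and Scarna8 kept their sign with centring on brighter probe sets, cyclic loess, array weights, the replicate block and each array left out (Scarna17 from 2.53 to 3.01, Scarna13 from 1.30 to 2.92, Scarna8 from 0.84 to 1.86 over the arrays left out); the alternatives for Scarna8 were added after its values were seen. The difference of Terc lay between -2.63 and 0.73 with arrays left out, and only the value without FLAG-SMN IP replicate 1, 0.73, turned the sign; array weights, which gave that array a weight of 0.453, put it at -0.027. The replicate number as a block gave 2.67, 1.30, 0.84 and -2.58 for Scarna17, Scarna13, Scarna8 and Terc, which is the value without FLAG-SMN IP replicate 3, since that number occurs in 1 group. The numbers are not shown to pair the arrays: deviations of same-numbered arrays correlated at 0.13 and -0.20, over 2 pairs. Of all probe sets, 9 passed in limma (2945 at an unadjusted p under 0.05), against 0 with cyclic loess, 41 with centring, 0 with all probe sets of the table, 86 with array weights and 0 with the replicate block, and from 0 to 350 with each array left out. At an unadjusted p under 0.05, the settings that left 0 had from 1883 to 3361. Pathway genes past the threshold numbered 0 (8 at an unadjusted p under 0.05), 1 with array weights, and from 0 to 1 with arrays left out; the gene was Smn1. The cause of these changes was not tested. Those higher at an unadjusted p numbered 4, and 1 to 5 over the alternatives, and those lower 4, and 2 to 6. Signal near background limits Scarna8, Tert, Lrrc34, Lrriq4, Myo5b, Fcgr1, BC107364, Rnu5g, Rnu6, Rnu7 and the Terc value of FLAG-SMN IP replicate 1.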
